A study of Mus musculus with 3 samples.

Results

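The T cell receptor and CD3 genes described here are Cd3d, Cd3e, Cd3g, Cd247, Trac, Trbc1, Trbc2, Trdc, Tcrg-C1 and Tcrg-C2. They were chosen by symbol, and all 10 have a row among the 31053 genes of the matrix. A T cell receptor is a pair of chains, alpha with beta or gamma with delta, each made of a variable region, assembled by DNA rearrangement in the thymus, and a constant region joined to it by RNA splicing. The receptor has no signalling tail of its own and reaches the cell surface together with the CD3 gamma, delta and epsilon chains and the CD3 zeta chain, whose tails are phosphorylated by Lck and then bind Zap70. Natural killer (NK) cells and type 1 innate lymphoid cells (ILC1) need no rearranged receptor. They use CD3 zeta, Fcer1g and Tyrobp as adaptors of other activating receptors, and the liver is known for its resident ILC1 and its many gamma delta T cells.

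The mice were of the Ai14 (LSL-Tomato) line, which carries a red fluorescent reporter that Cre recombinase switches on, and non-parenchymal cells were sorted from their livers. They had received 20a-LNP or 20mix-LNP, lipid nanoparticles with Cre mRNA at 0.3 mg/kg, or PBS, and cells were taken 3 h later. Each of the 3 treatments has 1 library, made by droplet sequencing of transcript 3′ ends with unique molecular identifiers (UMIs), and which populations were sorted is not stated. No source used here ties the barcode suffixes 1, 2 and 3 to the treatments, so each library is given under its suffix and no treatment comparison is made.

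T cells were barcodes with at least 2 UMIs of Cd3d and Cd3e together and at most 1 UMI of Ncr1 and Klrb1c together. NK and ILC1 cells were the converse, at least 2 UMIs of Ncr1 and Klrb1c, which encode 2 surface receptors of these cells, and at most 1 UMI of Cd3d and Cd3e. The gates held 124 T cells (20, 51 and 53 under suffixes 1, 2 and 3) and 503 NK and ILC1 cells (104, 218 and 181) among 3207 kept cells. The median depth was 5368 UMIs in T cells and 6443 UMIs in NK and ILC1 cells. A further 36 cells met both minimums and are called double positive. The whole matrix had 6144949, 8754827 and 9211407 UMIs under suffixes 1, 2 and 3, and 6 barcodes (3 sequences) occurred in more than 1 library, 3 of them in NK and ILC1 cells. Levels are counts per 1000000 UMIs of the summed class (CPM), with 95% exact Poisson intervals; ratios have exact intervals conditional on the total, and shares of cells exact binomial ones. These intervals cover counting error only. Each library holds every class, so T cells were also tested against NK and ILC1 cells, and ILC1-side against conventional NK-side cells (below), over the 3 libraries, by edgeR's quasi-likelihood test on UMIs summed per class and library, with the library as a block and Benjamini-Hochberg adjustment over all genes tested. The libraries come from 3 treatments, so these p-values measure the spread of a class difference between libraries that also differ in treatment, and the test was added after the values were seen. Since Cd3d and Cd3e chose the cells, their levels between T cells and NK and ILC1 cells are a description of the gate, and the other 8 genes carry the comparison. A gene was called where the pooled ratio was at least 2-fold and all 3 libraries had the same direction, among genes with at least 20 UMIs in the classes compared.

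Markers that the gates did not use were checked against the labels. Of 6 T cell markers, Cd5, Cd6, Bcl11b, Themis and Lat were called higher in T cells, and Cd28 was not called. Cd5, Cd6 and Themis had 0 UMIs in NK and ILC1 cells, so they reached the UMI minimum through T cells alone and their calls add no support. The summed level was 445, 512 and 814 CPM in T cells, against 180, 105 and 174 CPM in NK and ILC1 cells under suffixes 1, 2 and 3. The 8 NK and ILC1 markers summed to between 8550 and 10066 CPM in T cells and to between 15595 and 18482 CPM in NK and ILC1 cells, so these markers were abundant in the T cells too. Hepatocyte transcripts summed to 63.9 CPM in T cells and 55.0 CPM in NK and ILC1 cells, and sinusoidal endothelial markers to 20.8 and 18.8 CPM. Kupffer cell markers summed to 10.4 and 14.7 CPM, erythroid ones to 23.8 and 22.2 CPM, and stellate ones to 1.49 and 0.625 CPM.

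Cd3g and Cd3d are neighbours on mouse chromosome 9 (GRCm38, GENCODE M21). Cd3g lies at chr9:44969572-44980431 on the minus strand and Cd3d at chr9:44981786-44987339 on the plus strand, so they are transcribed away from each other from starts 1355 bases apart. Cd3e lies at chr9:44998740-45009627 on the minus strand, and Cd247 at chr1:165788681-165877277 on the plus strand. The RefSeq promoters (GRCm38.p6, 250 bases before to 50 after the start, written along the gene's own strand) of Cd3g, chr9:44980382-44980681, and of Cd3d, chr9:44981536-44981835, are shown because NK and ILC1 cells, gated to hold at most 1 UMI of Cd3d and Cd3e, held much Cd3g, as given below. Capitals mark AGGAAG on either strand, a longer form of the GGAA core of Ets factor sites.
Cd3g: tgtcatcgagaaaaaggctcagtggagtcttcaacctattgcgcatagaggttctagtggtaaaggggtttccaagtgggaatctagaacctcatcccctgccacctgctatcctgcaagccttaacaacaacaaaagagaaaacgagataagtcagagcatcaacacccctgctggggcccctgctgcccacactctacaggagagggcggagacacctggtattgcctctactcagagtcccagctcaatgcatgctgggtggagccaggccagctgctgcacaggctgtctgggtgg
Cd3d: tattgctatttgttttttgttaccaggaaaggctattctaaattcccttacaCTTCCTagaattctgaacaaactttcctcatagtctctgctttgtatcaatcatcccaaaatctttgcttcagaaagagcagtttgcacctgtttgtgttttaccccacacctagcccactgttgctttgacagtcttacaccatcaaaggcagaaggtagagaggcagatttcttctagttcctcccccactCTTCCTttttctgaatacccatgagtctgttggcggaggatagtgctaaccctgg
AGGAAG occurred 0 times in the Cd3g window and 2 times in each of the Cd3d, Cd3e and Cd247 windows, and 35.4% of the 32851 RefSeq promoters of this length held it. The E-box CANNTG, searched on both strands, occurred 4 times in the Cd3g window and 1 time in the Cd3d window, against 72.3% of all promoters with at least 1. The Runx core TGTGGT was in none of the 4 windows and in 16.8% of all promoters. The shorter core GGAA was not counted, and it occurs in the Cd3g window too. These are letters in a window and not measured sites.

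Trbc1 and Trbc2, the alternative constant genes of the beta chain, lie on chromosome 6 at chr6:41538218-41539881 and chr6:41546730-41548352, both on the plus strand. Their first constant exons of 375 bases differ at 1 base, shown in capitals within 61 bases of each (GRCm38, chr6:41538447-41538507 and chr6:41546959-41547019), because counts of such near copies can be mixed up.
Trbc1: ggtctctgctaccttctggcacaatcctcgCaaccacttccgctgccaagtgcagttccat
Trbc2: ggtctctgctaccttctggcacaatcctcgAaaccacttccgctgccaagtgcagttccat
The 3′ ends, where these libraries were read, differed more: of 300 stretches of 50 bases nearest the 3′ end, 0 were shared between the Trbc1 and Trbc2 transcripts. Tcrg-C1 and Tcrg-C2, gamma constant genes on chromosome 13, were 96.1% identical over the aligned transcript and shared 23.7% of such stretches, so their separate counts are uncertain. Trac and Trdc lie on chromosome 14, at chr14:54220521-54224206 and chr14:54142851-54148868 on the plus strand.

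The gate genes come first as a description. Cd3e, the CD3 epsilon chain, had 872, 828 and 685 CPM in T cells under suffixes 1, 2 and 3, against 0, 0.706 and 0.933 CPM in NK and ILC1 cells. Cd3d, the CD3 delta chain, had 855, 711 and 656 CPM in T cells, against 15.5, 9.89 and 2.80 CPM in NK and ILC1 cells. The gate allowed an NK or ILC1 cell 1 UMI of either gene, and 28 of the 503 cells held 1 of Cd3d while 2 held 1 of Cd3e.

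Cd3g, the CD3 gamma chain, was abundant in both classes. It had 1308, 1320 and 1311 CPM in T cells, against 720, 902 and 978 CPM in NK and ILC1 cells under suffixes 1, 2 and 3. The library ranges did not overlap, but the pooled ratio was only 1.48 (interval 1.37 to 1.60), short of the 2-fold call. With T cells gated on Cd5, Cd6, Bcl11b and Themis in place of Cd3d and Cd3e, it was 1.11 (0.998 to 1.23). Over the libraries the log2 ratio was 0.57 ± 0.14 (SE, n = 3 libraries, edgeR adjusted p = 0.0382). The adjusted p was 0.133 without the library of suffix 1, 0.0607 without that of suffix 2 and 0.269 with DESeq2. At least 1 Cd3g UMI was found in 87.9% of T cells (80.8% to 93.1%) and in 55.3% of NK and ILC1 cells (50.8% to 59.7%), at the median depths given above. In sinusoidal endothelial cells, which should lack the gene and had a median of 5872 UMIs, 0.959% of 834 cells held a Cd3g UMI. With each cell thinned to 1000 UMIs the shares were 65.0% in T cells, 38.6% in NK and ILC1 cells and 0.375% in sinusoidal endothelial cells.

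Cd247, the CD3 zeta chain, was the other CD3 gene present in both classes. It had 68.4, 81.2 and 107 CPM in T cells, against 39.4, 55.1 and 46.7 CPM in NK and ILC1 cells. The libraries of the classes did not overlap, and the ratio was 1.86 (1.36 to 2.51), again under the 2-fold call. It rests on 61 UMIs in T cells and 156 UMIs in NK and ILC1 cells, and was 1.09 (0.432 to 2.43) after thinning. Over the libraries it did not pass the edgeR test (log2 ratio 0.84 ± 0.26, SE, n = 3 libraries, adjusted p = 0.168).

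The alpha constant gene Trac separated the classes. It had 410, 357 and 339 CPM in T cells, against 4.22, 5.65 and 1.87 CPM in NK and ILC1 cells, where all 13 of its UMIs lay in 9 of 503 cells. The ratio was 88.1 (50.6 to 168), or 168 (28.5 to 6782) after thinning, and every library had T cells higher. The beta constant genes did not separate them in this way. Trbc1 had 812, 426 and 788 CPM in T cells, against 705, 686 and 799 CPM in NK and ILC1 cells. These ranges overlapped, and the ratio of 0.907 had an interval of 0.817 to 1.00 that includes 1. Without the library of suffix 2 it was 1.04 (0.924 to 1.18), and with T cells gated on no receptor or CD3 gene it was 1.04. With cells that also passed another class gate left out it was 0.722 (0.638 to 0.816). It was 0.616 (0.463 to 0.808) after thinning and 0.795 (0.683 to 0.923) without the library of suffix 3. Trbc2 had 650, 1060 and 1030 CPM in T cells, against 539, 505 and 567 CPM in NK and ILC1 cells, and its ratio was 1.83 (1.67 to 2.0). In the edgeR test over the 3 libraries Trac passed (log2 ratio 6.40 ± 0.28, SE, adjusted p = 1.2e-10), and Trbc1 did not (-0.19 ± 0.17, adjusted p = 0.778). Trac reached the UMI minimum through T cells alone, so no support is read from its test. Trbc2 passed (0.73 ± 0.16, adjusted p = 0.0192), but not without the library of suffix 2 (adjusted p = 0.162) or with DESeq2 (adjusted p = 0.115).

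At the level of single cells, Trbc1 was detected more widely in NK and ILC1 cells than in T cells. At least 1 Trbc1 UMI was found in 56.5% of T cells (47.3% to 65.3%) and in 90.9% of NK and ILC1 cells (88.0% to 93.2%), and after thinning in 29.3% and 50.9%. Trbc2 was detected in 82.3% of T cells and in 62.8% of NK and ILC1 cells, and after thinning in 53.7% and 35.2%. The shares in sinusoidal endothelial cells were 0.719% for Trbc1 and 0.600% for Trbc2. Among T cells, 61 held both genes, 41 Trbc2 alone, 9 Trbc1 alone and 13 neither. Among NK and ILC1 cells, 295 held both, 162 Trbc1 alone, 21 Trbc2 alone and 25 neither. Trbc1 alone was found in 2 of 20, 2 of 51 and 5 of 53 T cells, against 34 of 104, 70 of 218 and 58 of 181 NK and ILC1 cells under suffixes 1, 2 and 3.

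**Figure D1:**
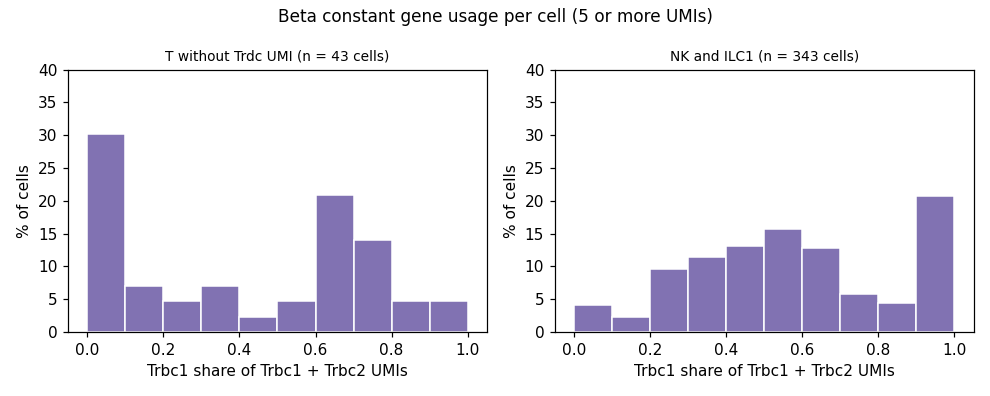
Share of Trbc1 among the Trbc1 and Trbc2 UMIs of each cell with at least 5 such UMIs, in T cells without a Trdc UMI (43 cells, left) and in NK and ILC1 cells (343 cells, right); bars give the percent of cells. In the T cells 34.9% lie at a share of at most 0.1, while in NK and ILC1 cells 20.7% lie at a share of at least 0.9 and the middle is filled.

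A rearranged beta chain is spliced to 1 constant gene, Trbc1 or Trbc2. Among cells with at least 5 UMIs of both genes together, 15 of 43 T cells without Trdc had a Trbc1 share of at most 0.1 and 2 had a share of at least 0.9. Among NK and ILC1 cells, 14 of 343 had a share of at most 0.1 and 71 had a share of at least 0.9, and the median share was 0.556. UMIs of both constant genes in 1 cell were thus common in both classes. UMIs of Cd3g and of a beta constant gene without any of Cd3d, Cd3e and Trac were found together in 243 of 503 NK and ILC1 cells (48.3%, 43.9% to 52.8%), with 41.3%, 46.8% and 54.1% under suffixes 1, 2 and 3. The gate allows these cells at most 1 UMI of Cd3d and Cd3e together, so the absence of these 2 genes is largely set by it.

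The gamma and delta constant genes separated the classes as Trac did. Trdc had 633, 776 and 436 CPM in T cells, against 31.0, 11.3 and 14.9 CPM in NK and ILC1 cells. The ratio was 35.2 (26.4 to 47.7); without the library of suffix 2 it was 23.0, and with T cells gated on no receptor or CD3 gene it was 18.8. Tcrg-C1 had 257, 349 and 281 CPM in T cells, against 14.1, 2.83 and 9.33 CPM in NK and ILC1 cells, a ratio of 40.2 (26.3 to 64.2). It was 24.4 without the library of suffix 2 and 23.4 with the other T cell gate. Tcrg-C2 had 222, 248 and 207 CPM in T cells, against 2.81, 2.83 and 1.87 CPM in NK and ILC1 cells, a ratio of 89.7 (44.4 to 212), or 52.7 with the other T cell gate. In every library each of these genes was higher in T cells by at least 18.2-fold. By the edgeR test over the 3 libraries the log2 ratios were 5.09 ± 0.25 for Trdc (SE, adjusted p = 4.6e-10), 5.22 ± 0.33 for Tcrg-C1 (adjusted p = 1.3e-08) and 6.37 ± 0.32 for Tcrg-C2 (adjusted p = 4.6e-10). Tcrg-C2 reached the UMI minimum through T cells alone, so its test adds no support. Tcrg-C4, a gamma constant gene that is not among the 10 and was added after its values were seen, behaved otherwise: 94.1, 191 and 119 CPM in T cells, against 91.5, 81.9 and 128 CPM in NK and ILC1 cells, with overlapping libraries and a ratio of 1.42 (1.12 to 1.79). Its transcript was 72.4% identical to Tcrg-C1 and shared 0 of the 300 stretches at the 3′ end. Trdc overlaps Trdv5 and Gm43434 on the opposite strand. Cd247 overlaps Gm16565 on the same strand and Pou2f1, among others, on the opposite strand. Cd3e overlaps Gm48720 on the same strand and Gm48719 on the opposite strand. Whether the counting used strand is not stated.

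**Figure D2:**
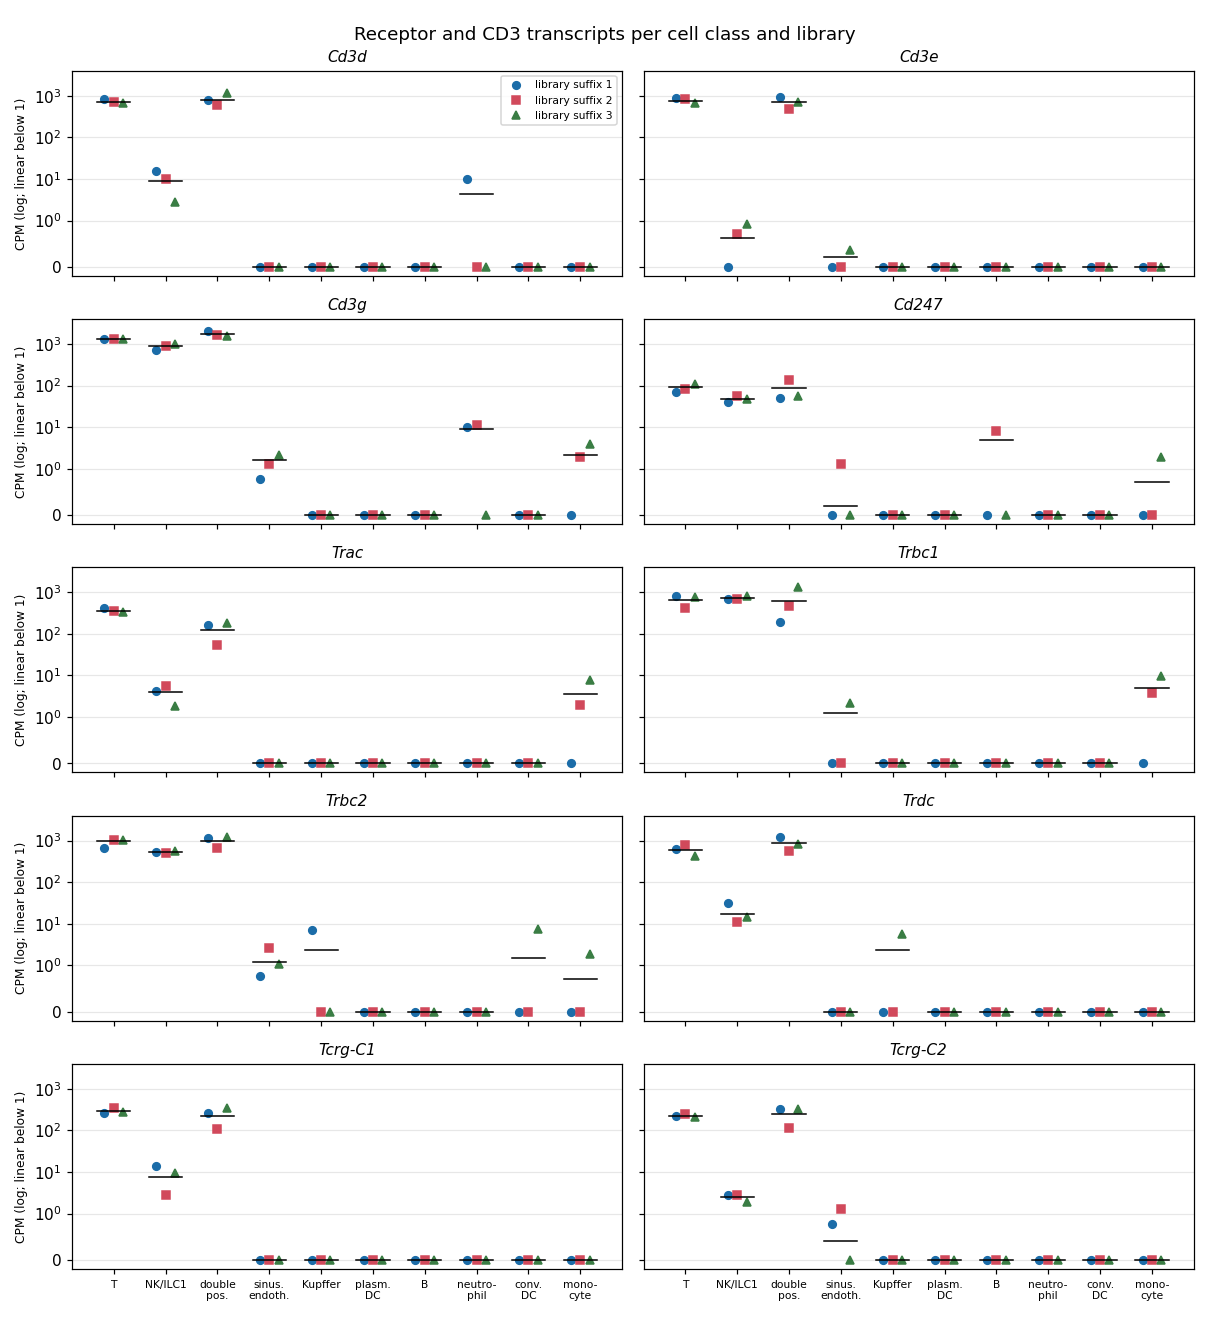
Levels of the 10 genes in CPM (logarithmic axis, linear below 1) in 10 cell classes, with 1 symbol for each library and a bar for the pooled value. Cd3g, Cd247, Trbc1 and Trbc2 stand at similar heights in T and NK and ILC1 cells, Trac, Trdc, Tcrg-C1 and Tcrg-C2 do not, and every other class outside the double positive cells stays near 0; Cd3d and Cd3e chose the cells.

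Together, all 8 genes outside the gate passed the UMI minimum, and 4 (Trac, Trdc, Tcrg-C1 and Tcrg-C2) were called higher in T cells. Over all 8878 genes tested, 2.34% were called higher in T cells and 4.92% higher in NK and ILC1 cells, where none of the 8 stood. By the edgeR test 6 of the 8 were higher in T cells (the 4 with Cd3g and Trbc2) and 0 higher in NK and ILC1 cells, beside 0.788% and 0.901% of the 8878 genes; at an unadjusted p under 0.05 these were 385 and 512 genes. Trac (13 UMIs in NK and ILC1 cells) and Tcrg-C2 (8 UMIs) passed the minimum through T cells alone. Their calls, by fold and by the edgeR test with the same minimum, add no support, though the 4 and the 6 include them. The median log2 ratio of the 8 genes was 3.01, beside 0.01 over all genes tested. It lies in a gap and describes no single gene. Cd3g, Cd247, Trbc1 and Trbc2 had ratios of 0.907 to 1.86, and the 4 called genes had ratios of 35.2 to 89.7. The median also includes Trac and Tcrg-C2, so no support is read from it. Summed, the 8 genes had 4361, 4618 and 4499 CPM in T cells, against 2056, 2171 and 2419 CPM in NK and ILC1 cells, a ratio of 2.03 (1.94 to 2.12). Without Trbc1 and Trbc2 it was 2.98.

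**Figure D3:**
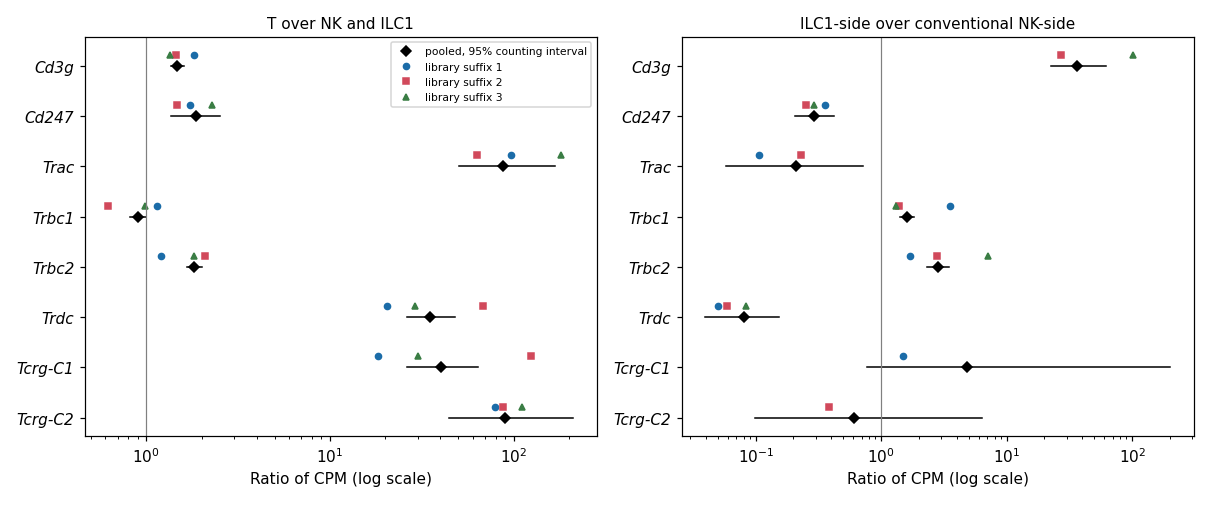
Ratios of CPM on a logarithmic axis for the 8 genes outside the gate, T over NK and ILC1 cells (left) and ILC1-side over conventional NK-side cells (right). Diamonds are pooled ratios with 95% counting intervals, other symbols single libraries (not drawn where 1 side had 0 UMIs), and the grey line marks 1: on the left Trac, Trdc, Tcrg-C1 and Tcrg-C2 stand apart from the other 4 genes, on the right Cd3g stands at 36.0 and Trdc at 0.0807.

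The genes were then set against cells that should lack them. Summed over the 8 genes, NK and ILC1 cells had 2228 CPM (2177 to 2281) and sinusoidal endothelial cells 4.70 CPM (2.98 to 7.05), a ratio of 474 (316 to 748), or 205 (108 to 449) after thinning. Of the 8 genes, 6 passed the UMI minimum and were called higher in NK and ILC1 cells, beside 19.3% of 11070 genes. They passed it through NK and ILC1 cells alone, so nothing is read from these calls and no test was run. Trac and Tcrg-C2 did not pass it. Plasmacytoid dendritic cells had 0 UMIs of the 8 genes, which makes the level in NK and ILC1 cells at least 279-fold higher than the 3 UMIs that a pooled count of 0 allows. Trdc had 54 UMIs in NK and ILC1 cells and 0 UMIs in sinusoidal endothelial cells, Trac 13 and 0, and Tcrg-C1 24 and 0.

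The order of levels across 10 cell classes repeated this division. Cd3g was highest in double positive cells (1796 CPM), then in T cells (1314 CPM) and in NK and ILC1 cells (887 CPM), and no 2 neighbours among these had overlapping libraries; the next class, neutrophils, had 8.83 CPM. Cd247 ran from T cells (90.7 CPM) over double positive cells (85.9 CPM) to NK and ILC1 cells (48.8 CPM), with overlapping neighbours throughout, and then to B cells (4.86 CPM). Trac was highest in T cells (358 CPM), then in double positive cells (127 CPM), and in NK and ILC1 cells (4.06 CPM) it overlapped monocytes (3.56 CPM). Trbc1 did not differ in order beyond the libraries between NK and ILC1 cells (728 CPM), T cells (660 CPM) and double positive cells (626 CPM). Trbc2 overlapped between T cells (975 CPM) and double positive cells (970 CPM) and was lower in NK and ILC1 cells (533 CPM). Trdc overlapped between double positive cells (863 CPM) and T cells (595 CPM), with NK and ILC1 cells next at 16.9 CPM, above Kupffer cells at 2.28 CPM. Tcrg-C1 and Tcrg-C2 likewise overlapped between T cells (302 and 224 CPM) and double positive cells (225 and 250 CPM), and had 7.50 and 2.50 CPM in NK and ILC1 cells.

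The genes whose class pattern was most like each member were found by Pearson correlation of log2(CPM + 10) over the 10 classes, among genes with at least 50 CPM in 1 class. The classes share libraries and are few, so these are descriptions. Trgv2, a gamma variable segment, was first for Cd3d, Cd3e, Trac, Trdc, Tcrg-C1 and Tcrg-C2, with r between 0.969 and 0.999. Tcf7 and Thy1 came next for Cd3d, Cd3e, Trdc, Tcrg-C1 and Tcrg-C2 (r between 0.914 and 0.956), and Trat1 (0.947) and Thy1 (0.931) for Trac. Cd3g was followed most closely by Gata3, Cd160 and Abcb1a (r = 0.996 each), and genes close to Cd247 were Atp8a2 (0.992) and Abcb9 (0.991). Trbc1 was followed by Fasl, Cd96 and Cst7, with r of at least 0.999, and Trbc2 by Atp8a2 and Gata3, with r of at least 0.998.

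Within the T cells, alpha and delta constant genes marked different cells. Trdc without Trac was found in 37 of 124 cells, Trac without Trdc in 51, both in 10 and neither in 26. The median depth was 5126, 6344, 6588 and 1695 UMIs in the same order, so the cells with neither were the shallowest. Under suffixes 1, 2 and 3, Trdc without Trac was found in 5 of 20, 16 of 51 and 16 of 53 T cells. Since Trac and Trdc chose these cells, only the other genes are compared. Tcrg-C1 had 582 CPM in the cells with Trdc alone and 104 CPM in those with Trac alone, a ratio of 5.59 (3.81 to 8.36) that was above 1 in all 3 libraries. Cd3g had 1965 CPM in the cells with Trdc alone and 962 CPM in those with Trac alone, a ratio of 2.04 (1.76 to 2.38), with 1.31, 2.90 and 1.95 in the 3 libraries. Tcrg-C2 had 329 and 169 CPM in the same order, but a ratio of 0.978 in the library of suffix 2. Trbc1 had 390 CPM in the cells with Trdc alone, against 895 CPM in those with Trac alone. The ratio was 0.436 (0.332 to 0.565), with 0.245, 0.894 and 0.397 in the 3 libraries. Trbc2 had 747 CPM in the cells with Trdc alone and 1128 CPM in those with Trac alone, a ratio of 0.662 (0.541 to 0.806), but of 1.83, 0.391 and 0.743 in the 3 libraries. A Trbc2 UMI was found in 32 of the 37 cells with Trdc alone. Cd8b1, the beta chain of the CD8 co-receptor, had 0 UMIs in the cells with Trdc alone and 380 CPM in those with Trac alone, while Cd8a had 274 CPM and 450 CPM. At least 1 UMI of Cd8a or Cd8b1 was found in 65 of the 124 T cells and of Cd4 in 2. Set against T cells with neither co-receptor, those with Cd8a or Cd8b1 had a Cd3g ratio of 1.06 (0.920 to 1.21) and a Trbc1 ratio of 1.5 (1.22 to 1.85), the second with 1.00, 0.923 and 2.19 in the 3 libraries.

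The 36 double positive cells leaned to the delta side. Trdc without Trac was found in 22 of them (61.1%, 43.5% to 76.9%), Trac without Trdc in 7, both in 3 and neither in 4. The libraries had 9 of 12, 7 of 14 and 6 of 10 cells with Trdc alone. Cd3g had 2089, 1688 and 1600 CPM there, above every library of the T cells. Their median depth was 6611 UMIs, and the NK and ILC1 markers outside the gate summed to 16904 CPM, close to the 16885 CPM of NK and ILC1 cells. Of the T cell markers outside the gate, Cd6 and Themis had 0 UMIs. Cd6 also had 0 UMIs in the T cells with Trdc alone, so its absence does not set the double positive cells apart from T cells. Doublets that Scrublet did not call may be among the double positive cells, and their part was not tested.

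Variable segments were sparse at the 3′ end. The 35 Trbv genes had 17 UMIs in T cells and 0 UMIs in NK and ILC1 cells, where Trbc1 had 2328 and Trbc2 had 1706 UMIs. The 128 Trav genes had 30 UMIs in T cells and 10 UMIs in NK and ILC1 cells, 8 of these from Trav22. The 7 gamma segments had 122 UMIs in T cells, 92 of them from Trgv2, and 22 UMIs in NK and ILC1 cells. The 6 Trdv genes went the other way, with 10 UMIs in T cells and 121 UMIs in NK and ILC1 cells, of which Trdv4 gave 108 in 88 cells (31, 43 and 34 UMIs under suffixes 1, 2 and 3). At 14.9 CPM in T cells and 37.8 CPM in NK and ILC1 cells, the Trdv genes were the only group of segments with the higher level in NK and ILC1 cells.

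The NK and ILC1 gate holds cells of both kinds, and the genes differed between them. ILC1-side cells had at least 2 UMIs of Itga1, Cd200r1 and Cxcr6 together and at most 1 UMI of Itga2, Eomes, Klra4, Klra8 and S1pr5 together, and conventional NK-side cells the converse. There were 342 ILC1-side cells (66, 138 and 138) and 67 conventional NK-side cells (12, 43 and 12), with median depths of 6427 and 7134 UMIs, and 94 cells lay between. Of the markers outside these gates, Tnfsf10 had 232 CPM in ILC1-side cells and 15.0 CPM in conventional NK-side cells and Cd7 had 1821 and 419 CPM, and both were called. Tnfsf10 reached the UMI minimum through the ILC1-side alone, so its call adds no support. The ILC1 marker Il7r had 79.9, 92.5 and 95.7 CPM in ILC1-side cells, against 30.3, 8.74 and 112 CPM in conventional NK-side cells, the opposite order under suffix 3, and was not called. Of the conventional NK markers, Itgam had 11.8 CPM in ILC1-side cells and 135 CPM in conventional NK-side cells, Klrg1 5.46 and 122 CPM, and Zeb2 15.0 and 246 CPM.

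Of the 8 genes, Cd3g had the largest ratio between them. It had 953, 1262 and 1144 CPM in ILC1-side cells, against 0, 46.6 and 11.2 CPM in conventional NK-side cells under suffixes 1, 2 and 3. It was found in 228 of 342 ILC1-side cells and in 3 of 67 conventional NK-side cells, which is 66.7% and 4.48%, or 48.5% and 1.49% after thinning, and 14 of the 17 UMIs of the conventional NK-side lay in 1 cell. The ratio was 36.0 (22.5 to 61.9), and 203 (36.3 to 8016) without the library of suffix 2, which held that cell. Cd247 went the other way, with 32.4, 30.1 and 39.5 CPM in ILC1-side cells, against 90.8, 119 and 134 CPM in conventional NK-side cells. The libraries did not overlap, and the ratio was 0.293 (0.206 to 0.417). Trbc1 had 780, 715 and 819 CPM in ILC1-side cells, against 222, 519 and 626 CPM in conventional NK-side cells, a ratio of 1.60 (1.40 to 1.83). Trbc2 had 566, 596 and 639 CPM in ILC1-side cells, against 333, 213 and 89.5 CPM in conventional NK-side cells, a ratio of 2.83 (2.33 to 3.45). Both beta constant genes were thus present on both sides and higher on the ILC1-side in every library. Trdc had 8.64, 2.23 and 8.37 CPM in ILC1-side cells, against 172, 37.9 and 101 CPM in conventional NK-side cells, a ratio of 0.0807 (0.0395 to 0.154), or 0.0471 (0.0177 to 0.107) with gates of at least 3 UMIs. It was found in 12 of 342 ILC1-side cells and in 21 of 67 conventional NK-side cells, which is 3.51% and 31.3%, or 0.877% and 4.48% after thinning.

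Of the 8 genes, 6 passed the UMI minimum here. Cd3g and Trbc2 were called higher on the ILC1-side, where 8.77% of 8237 genes were, and Cd247 and Trdc on the conventional NK-side, where 3.40% were. Tcrg-C1 also met the call, but passed the minimum through the ILC1-side alone, with 20 UMIs in ILC1-side cells and 1 UMI in conventional NK-side cells and an interval of 0.775 to 201, and is not counted. Cd3g passed the minimum through the ILC1-side alone (2529 and 17 UMIs) and Trdc through the conventional NK-side alone (13 and 39 UMIs). No support is read from their calls, nor from their edgeR p-values below, since that test used the same minimum. By the edgeR test over the 3 libraries, Cd3g (log2 ratio 5.30 ± 0.29, SE, adjusted p = 2.9e-14), Trbc2 (1.53 ± 0.22, adjusted p = 1.7e-05) and Trbc1 (0.79 ± 0.20, adjusted p = 0.0109) were higher on the ILC1-side, beside 3.33% of the 8237 genes. Cd247 (-1.78 ± 0.30, adjusted p = 1.8e-04) and Trdc (-3.84 ± 0.49, adjusted p = 1.9e-06) were lower there, beside 2.33%. Tcrg-C1 did not pass (adjusted p = 0.587). Trbc1 did not pass without the library of suffix 1 (adjusted p = 0.220), without that of suffix 3 (0.137) or with DESeq2 (0.118). The summed level was 2360, 2616 and 2665 CPM in ILC1-side cells, against 848, 956 and 962 CPM in conventional NK-side cells, a ratio of 2.76 (2.51 to 3.03); without Cd3g it was 1.58.

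**Figure D4:**
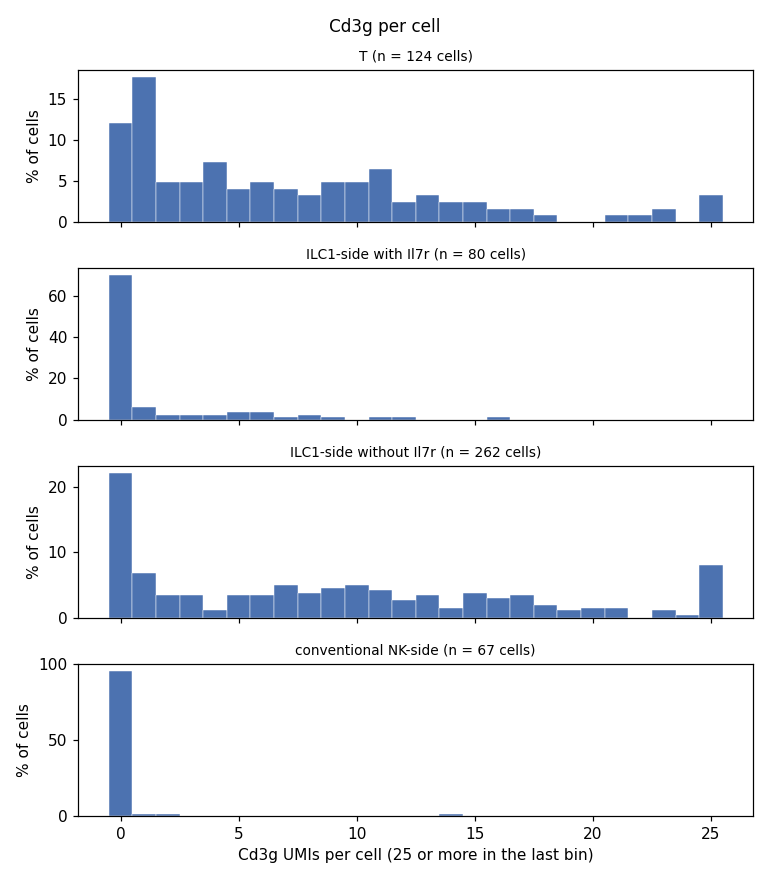
Cd3g UMIs per cell (25 or more in the last bin) as percent of cells, in T cells, ILC1-side cells with and without an Il7r UMI, and conventional NK-side cells; the vertical scales differ. Cells at 0 were 15 of 124 T cells, 56 of 80 ILC1-side cells with Il7r, 58 of 262 without Il7r and 64 of 67 conventional NK-side cells.

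The ILC1-side itself was not uniform in Cd3g. Of its 342 cells, 114 held 0 UMIs, and the 228 others had a median of 10.0 and up to 41 UMIs. Across these cells, Cd3g correlated with Gzma (Pearson r = 0.52), Gzmb (0.51) and Tyrobp (0.42), which encode cytotoxic granule proteases and an adaptor, and inversely with Il7r (-0.44), Tmem176b (-0.43) and Tcrg-C4 (-0.34). Each kept its sign in all 3 libraries, which also gave the pooled correlation. Cd3g itself had r = 0.04 with the logarithm of a cell's total UMIs. With that logarithm Tyrobp had r = 0.44, Gzmb 0.28, Tmem176b 0.18, Gzma 0.15, Tcrg-C4 0.09 and Il7r 0.06, and the part of depth was not tested. These genes were picked for their correlation, so a split of the ILC1-side by Il7r, the interleukin 7 receptor, is a description chosen after its values were seen. Cells without an Il7r UMI may still express it. The split gave 80 cells with Il7r and 262 without.

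In that split Cd3g had 211, 225 and 213 CPM in the cells with Il7r, against 1281, 1567 and 1517 CPM in those without. The ratio was 0.145 (0.121 to 0.174), and 0.0905 with at least 2 Il7r UMIs asked for. The beta constant genes did not follow: Trbc1 had 721 CPM in the cells with Il7r and 786 CPM in those without, a ratio of 0.917 (0.819 to 1.02), and Trbc2 had 529 and 634 CPM, a ratio of 0.835 (0.733 to 0.949) that became 0.955 (0.809 to 1.12) without the library of suffix 3. Tcrg-C4 had 191 CPM in the cells with Il7r and 79.5 CPM in those without, a ratio of 2.41 (1.85 to 3.13), or 1.77 (0.830 to 3.63) after thinning. Gzma had 2946 CPM in the cells with Il7r and 8312 CPM in those without, and Gzmb 1897 and 3921 CPM. Cd3g chose the split, so its own call is no finding. Of the other 4 members that passed the UMI minimum (Cd247, Trbc1, Trbc2 and Tcrg-C1), 0 were called, beside 1.46% of 7757 genes called higher and 3.06% lower in the cells with Il7r; no test was run. Cd247 had a ratio of 0.577 (0.291 to 1.06), and 0.270 (0.0541 to 0.826) with at least 2 Il7r UMIs asked for. Kupffer cell markers summed to 0 CPM in the cells with Il7r and to 23.6 CPM in those without, and their part in the result was not tested.

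The proximal signalling genes read out the receptor. Of 28 listed genes, 27 passed the UMI minimum between T cells and NK and ILC1 cells; 6 were called higher in T cells, among them Lat, Plcg1, Themis and Trat1, and 1 lower (Syk), beside 2.34% and 4.92% of all genes tested; 1 of 27 is close to that background. Their median log2 ratio was 0.23, beside 0.01 over all genes. By level, the leading genes were Ptprc (CD45, a phosphatase that activates Lck), with 1627 CPM in T cells and 1391 CPM in NK and ILC1 cells, Txk with 459 and 653 CPM, and Lck with 492 and 354 CPM. Lat, the scaffold that Zap70 phosphorylates, had 171 CPM in T cells and 53.2 CPM in NK and ILC1 cells, a ratio of 3.22 (2.52 to 4.10). Themis, a T lineage signalling protein, had 53.5 CPM in T cells and 0 UMIs in NK and ILC1 cells. It reached the UMI minimum through T cells alone, so its call adds no support. Zap70, the kinase that binds the CD3 tails, had 230 CPM in T cells and 163 CPM in NK and ILC1 cells, a ratio of 1.41 (1.17 to 1.69). Between ILC1-side and conventional NK-side cells, 4 of 26 tested genes were called higher on the ILC1-side (Zap70, Lcp2, Plcg1 and Trat1) and 1 lower (Fyn), beside 8.77% and 3.40% of all genes; 1 of 26 is close to the background. Zap70 had 186 CPM in ILC1-side cells and 71.5 CPM in conventional NK-side cells. Trat1, at 9.38 CPM in all NK and ILC1 cells, lay close to the UMI minimum and reached it mostly through the ILC1-side. No support is read from its call, though the 4 called genes include it.

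Of 10 co-receptor genes tested, 5 were called higher in T cells (Cd8a, Cd8b1, Cd5, Cd6 and Thy1) and 0 lower, beside 2.34% and 4.92% of all genes, with a median log2 ratio of 2.32. Cd8a had 378 CPM in T cells and 1.56 CPM in NK and ILC1 cells, and Thy1 had 293 and 48.8 CPM. Cd5 and Cd6 had no UMI in NK and ILC1 cells, and a Cd8a or Cd8b1 UMI was found in 3 of 503. Because Cd5, Cd6 and Cd8a thus reached the UMI minimum through T cells alone, no support is read from the calls of these genes or of Cd8b1. The 5 called genes and the median log2 ratio include them, so neither is read as support. The alternative adaptors went the other way: Tyrobp had 587 CPM in T cells and 2178 CPM in NK and ILC1 cells, a ratio of 0.269 (0.243 to 0.298), and Fcer1g had 972 and 2007 CPM, a ratio of 0.484 (0.446 to 0.525). Hcst, the third adaptor, had 770 and 750 CPM and was not called. Fcer1g and Tyrobp were themselves uneven among T cells, with 1790 and 1180 CPM in the cells with Trdc alone and 560 and 276 CPM in those with Trac alone.

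Among 16 listed transcription factors of the T lineage, 14 were tested; Bcl11b, Tcf7 and Lef1 were called higher in T cells and Eomes lower, beside 2.34% and 4.92% of all genes. Id2, which is needed for innate lymphoid cells, had 1012 CPM in T cells and 1385 CPM in NK and ILC1 cells, and Ets1 had 676 and 599 CPM. Bcl11b had 238 CPM in T cells and 56.9 CPM in NK and ILC1 cells, a ratio of 4.18 (3.36 to 5.20). On the ILC1-side Bcl11b, Tox and Id3 were called higher, and on the conventional NK-side Tcf7, Lef1 and Eomes, of which Eomes was a gate gene, beside 8.77% and 3.40% of all genes. The recombination genes Rag1 and Rag2 had 0 UMIs in T cells and in NK and ILC1 cells, and no gene of the assembly list passed the UMI minimum.

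Values next to the gate limits were as follows. The 24 T cells with exactly 2 UMIs of Cd3d and Cd3e had 2518 CPM of the 8 genes, and the 29 cells with exactly 1 had 1764 CPM. The 95 NK and ILC1 cells with exactly 2 UMIs of Ncr1 and Klrb1c had 2428 CPM, and the 111 cells with exactly 1 had 1775 CPM. Cells just outside both gates thus carried the genes too.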

How the data were processed

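Sorted liver non-parenchymal cells were measured by droplet single-cell RNA sequencing. The deposited values are UMI counts per gene, not normalized, in a joint matrix of 4638 barcodes from 3 libraries, which the authors made with Cell Ranger 3.1.0 per the file headers; the build is mm10, and STAR, Seurat and edgeR are also named, per the submitters' processing notes, which give no roles. Barcode suffixes are not tied to treatments in the sources used here. From the counts, barcodes with under 200 genes (200) or over 20% mitochondrial UMIs (1300) were removed, 1408 in all, and 23 Scrublet doublets after them. Classes were gated on raw UMIs of fixed markers. UMIs were summed per class and library, given as CPM with 95% exact intervals, and set as ratios; with 1 library per treatment, treatments were not tested. Since each library holds both classes, edgeR's quasi-likelihood test (TMM, at least 20 UMIs, library as block, Benjamini-Hochberg adjusted p under 0.05) was added, after the values were seen, for 2 class comparisons, with DESeq2, no block and each library left out as alternatives; subsets of T cells and of the ILC1-side were not tested. Shares were also computed after thinning cells to 1000 UMIs. Members, lists, markers and rules were chosen with earlier results of these data known. The text names all 10 members, the leading 2 to 4 genes of each list by CPM and called ones, the 3 most similar genes per member, and leading variable segments, except a few items that are not reported here; Tcrg-C4, Tcrg-V symbols, the Il7r split and genes singled out in subsets were chosen after their values were seen. Alternatives varied filters, doublets, gates, scaling (edgeR's TMM, DESeq2's size factors), depth, library weights and members. Ratio, interval and test code was tested on simulated data. Positions are GENCODE M21 (GRCm38), and promoters RefSeq (GRCm38.p6, all 4 CD3 genes matched). Versions were Python 3.11.15, numpy 2.4.6, scipy 1.17.1, scanpy 1.11.5, R 4.3.3, edgeR 4.0.16 and DESeq2 1.42.0.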

Additional observations from a re-analysis of the deposited data

Results flagged for a closer look

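Member transcripts also lay outside the cells described. The 1163 kept cells of no class held 1778 UMIs of the 10 genes, a signal in data that the comparisons do not use; 817 of these UMIs lay in the 99 cells with 1 UMI of Ncr1 and Klrb1c together, below the gate minimum. The 1408 barcodes removed by the cell filter held 374 UMIs of the 10 genes, likewise outside the comparisons, 160 of them from Trbc1.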

How the results depend on the processing

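The summed ratio of T over NK and ILC1 cells (2.03) was 2.13 with gates of at least 3 UMIs, 1.87 after thinning to 1000 UMIs, 1.68 with T cells gated on no receptor or CD3 gene, 2.98 without Trbc1 and Trbc2, and 1.80 without Tcrg-C1 and Tcrg-C2. Leaving out 1 library gave 1.96 to 2.13. The ratio of NK and ILC1 over sinusoidal endothelial cells (474) was 205 after thinning, where few endothelial UMIs remain, and 411 to 551 with 1 library left out. The ratio of ILC1-side over conventional NK-side cells (2.76) was 1.58 without Cd3g, 3.11 without Cd247, and 2.71 to 2.84 with 1 library left out. With 1 UMI as the minimum per gene, more genes are tested and 880 in place of 437 were called higher in NK and ILC1 cells against T cells, 1186 in place of 722 on the ILC1-side, and 258 and 569 in place of 113 and 237 higher and lower in ILC1-side cells with Il7r. Of 264 values that 18 ratios of single genes took under 16 alternatives, 240 moved by less than their counting interval and 24 by more. Trbc1 between T cells and NK and ILC1 cells (0.907) was above 1 at 1.04 without the library of suffix 2 and with T cells gated on no receptor or CD3 gene. That ratio fell to 0.616 (0.463 to 0.808) after thinning and to 0.795 (0.683 to 0.923) without the library of suffix 3. Where not stated, the cause was not tested. TMM or DESeq2 scaling shifted log2 ratios by -0.03 to 0.06. Alternatives to the Il7r split and Tcrg-C4 were chosen after seeing the data. In the test with the library as replicate block, added after the values were seen, 70 genes were higher and 80 lower in T cells against NK and ILC1 cells (104 and 94 without the block, 36 and 22 with DESeq2, 63 to 112 and 60 to 77 with 1 library left out). Between ILC1-side and conventional NK-side cells 274 were higher and 192 lower on the ILC1-side (359 and 264 without the block, 75 and 81 with DESeq2, 120 to 206 and 99 to 172 with 1 library left out). The log2 ratio of Trbc1 between T cells and NK and ILC1 cells was -0.19, and -0.34 to 0.08 with 1 library left out, the 0.08 without that of suffix 2. Removing the block ended no member's call. The treatments were not paired, with 1 library each. The depth limits what 0 UMIs show: in sinusoidal endothelial cells 0 UMIs allow up to 0.613 CPM.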
